A study of Mus musculus with 208 samples.

Results

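The baseline effect of perinatal morphine on the adult striatum was examined in nuclear RNA from 21 libraries, 8 of the group MOR-SAL and 13 of the group SAL-SAL, out of the 208 RNA libraries of the series. All mice were wild type C57BL/6NTac. In MOR-SAL, dams carried osmotic minipumps delivering morphine at 10 mg/kg/day through gestation, the pups went to drug-naive foster dams, and each pup was injected with 10 mg/kg morphine 2 times a day from postnatal day 1 to 14. SAL-SAL mice had saline in the pumps and the injections. Both groups received a saline injection as adults and tissue was taken 2 h later, so that neither group met the bacterial endotoxin LPS. Each library came from about 5000 nuclei of 1 animal, sorted for the neuronal nuclear protein NeuN from 2.0 mm striatal punches, and an antibody sort of this kind can carry over nuclei of other types. MOR-SAL held 4 females and 4 males from 6 litters, and SAL-SAL 6 females and 7 males from 7 litters, with 1 to 2 and 1 to 3 libraries per litter. Members were chosen by group label. A library with a total count under 0.5 times the median of all 54 striatal libraries was to be dropped, and 0 were. The genes described are the 14025 of 46403 listed genes with a mean of at least 1 CPM, counts scaled to the library's total, over the 21 libraries.

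Most striatal neurons are medium spiny neurons, GABAergic projection cells that divide into a direct pathway, with the D1 dopamine receptor, dynorphin and substance P, and an indirect pathway, with the D2 dopamine receptor, the adenosine receptor Adora2a and enkephalin. Morphine acts mainly through the mu opioid receptor, a Gi/o-coupled receptor that lowers cAMP and opens GIRK potassium channels, and striatal neurons carry mu, delta and kappa receptors together with the peptides that activate them. Repeated opioid exposure of adult animals is known for adaptations of cAMP signalling and of immediate early genes in this region. Nuclear RNA, which holds unspliced transcripts as well as mRNA, reports these genes close to their transcription.

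Total counts ran from 5954700 to 16183369 in MOR-SAL (median 10197308.5) and from 6658372 to 26176775 in SAL-SAL (median 10930689), a difference within the spread of the libraries (two-sided exact permutation test over 203490 arrangements, p = 0.195). MOR-SAL libraries held 13580 to 18155 detected features (median 17542) and SAL-SAL libraries 16954 to 19197 (median 18120), with an exact permutation p of 0.0163 and a Benjamini-Hochberg adjusted p of 0.0815 over the 5 library measures compared. The most abundant feature in all but 1 library was Gm26917, a noncoding transcript, with 2.2% to 19.5% of counts in MOR-SAL and 1.16% to 11.1% in SAL-SAL (exact permutation p = 0.523). The labelled sex was met by Y-linked genes in every library, 0 going against it.

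The libraries were first compared for the cells they held, and several stood apart in 1 measure or another. The plain mean of log2(normalised CPM + 1) over 21 medium spiny neuron markers lay between 7.69 and 9.33 in MOR-SAL (median 8.33), while SAL-SAL had a median of 8.24 and a range of 5.6 to 9.26. The 2 lowest were SAL-SAL 3-2 (5.6) and SAL-SAL 3-4 (5.78), littermates, and the other SAL-SAL libraries began at 7.45. These littermates also held the highest level of 12 cortical excitatory markers, 4.9 and 5.76, where the remaining SAL-SAL libraries reached at most 3.44 and MOR-SAL at most 3.43. MOR-SAL 15-0 had the lowest depth of all, 19.5% of its counts on Gm26917, and 22 genes above 5 times the level of each other library, where the other MOR-SAL libraries had 0 or 1 such gene. SAL-SAL 3-2, 3-4 and 9-4 had 11, 9 and 13. SAL-SAL 9-4 also had the highest levels of oligodendrocyte (6.8), astrocyte (4.59) and microglial (3.06) markers, and MOR-SAL 17-2 the highest ribosomal protein level of its group (4.68). Values are therefore given for all 21 libraries and, for many of them, also for a set of 18. This set, chosen after seeing the data, leaves out MOR-SAL 15-0, SAL-SAL 3-2 and SAL-SAL 3-4 and keeps 9-4 and 17-2.

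The remaining markers of other cell types varied within both groups. The level of 9 thalamic markers, among them Slc17a6 and Prkcd, ran from 3.47 to 8.02 in MOR-SAL (median 6.6) and from 3.27 to 7.77 in SAL-SAL (median 6.4), so that levels of these genes spread widely within each group. All of the 14 described oligodendrocyte markers and all of the 7 described microglial markers had estimates below 0, with medians of -0.62 and -0.71 on the log2 fold change scale, and 0 in either list had an unadjusted p under 0.05. The oligodendrocyte median was 0.13 in males alone and -2.41 in females alone, and the microglial median -0.41 and -1.64. With 1 library or litter left out these medians ran from -1.47 to -0.29 and from -1.4 to -0.39. Their summed level ran from 222 to 1280 normalised CPM in MOR-SAL and from 170 to 4720 in SAL-SAL for oligodendrocytes, the highest being SAL-SAL 9-4, and from 15.1 to 53.6 and 15.1 to 111 for microglia. P2ry12, a defining microglial gene, and Gfap, an astrocyte gene, were listed at 0 in all 21 libraries. With the levels of the medium spiny neuron, thalamic and cortical markers as covariates, a fit added after seeing the data, 2 genes were called and 428 described genes were higher and 669 lower at an unadjusted p under 0.05, beside 0, 459 and 635 without them. The part of glial cells in the results that follow was not tested, and in bulk libraries fewer cells of a type and less RNA per cell cannot be told apart.

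**Figure D1:**
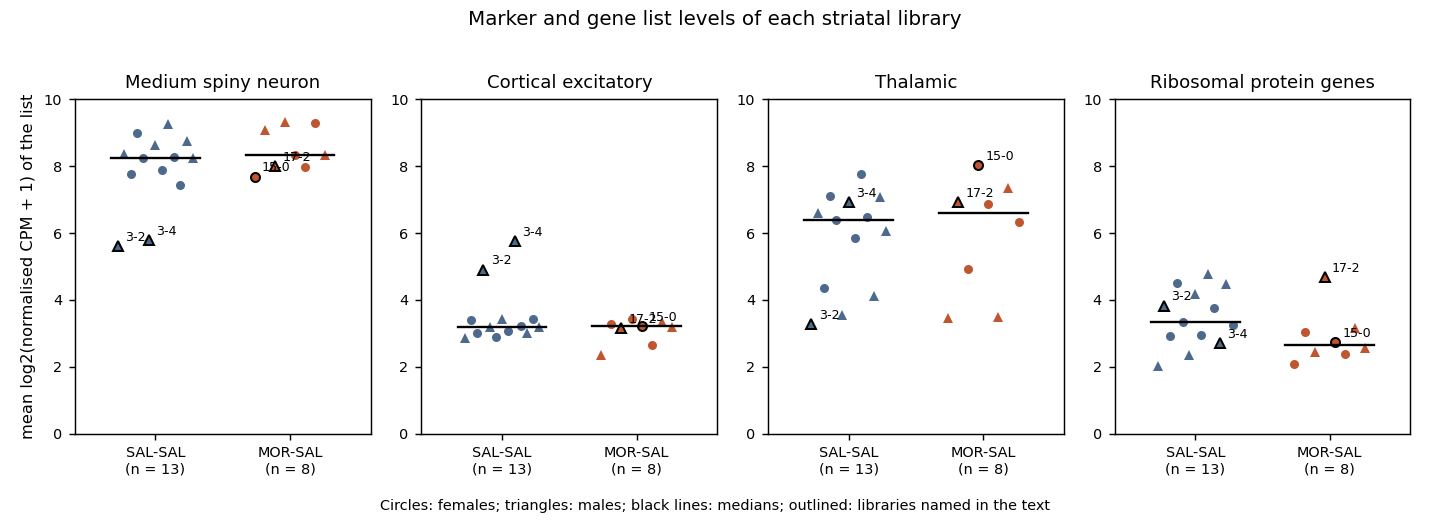
Mean log2(normalised CPM + 1) over the medium spiny neuron, cortical excitatory, thalamic and cytosolic ribosomal protein genes in each striatal library, by group (1 point a library, circles females, triangles males, lines medians). SAL-SAL 3-2 and 3-4 lie at 5.6 and 5.78 for medium spiny neuron genes, below all others, and at 4.9 and 5.76 for cortical genes, above all others; thalamic levels spread from about 3.27 to 8.02 over both groups.

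The main question was which genes differed between adult mice exposed to perinatal morphine and to saline, without any later challenge. No gene was called: in edgeR's quasi-likelihood test, with sex and the 4 striatal conditions as terms, 0 of 23426 genes tested had an adjusted p under 0.05 (background 0%). The smallest adjusted p was 0.093, shared by Jarid2 and Myom3. An unadjusted p under 0.05 was found for 2683 of the 23426 genes (11.5%). Among the 14025 described genes it was found for 1094 (7.8%), of which 459 (3.27%) were higher in MOR-SAL and 635 (4.53%) lower. Scaling by library size alone changed this split to 108 higher and 1383 lower and moved the median log2 fold change of the described genes from -0.03 to -0.21. Without MOR-SAL 15-0, SAL-SAL 3-2 and SAL-SAL 3-4, 179 described genes (1.28%) were higher and 371 (2.65%) lower at that p. Leaving out MOR-SAL 17-2 alone moved the counts the other way, to 691 higher and 1568 lower. Counts summed over litters gave 303 and 1140, and limma on log2(CPM + 1) 85 and 2029. DESeq2 called 6 genes, all lower, of which 1 was described.

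The fit gave a median standard error of 0.266 on the log2 scale, so that the 95% interval of a typical described gene reached 0.533 to either side of its estimate. For 9053 described genes (64.5%) the interval lay wholly between -1 and 1, which leaves out a change of 1 log2 unit or more in either direction. The biological coefficient of variation, the relative spread of a gene between libraries of 1 group, was 0.603. For the remaining genes the interval did not leave out a change of that size.

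**Figure D2:**
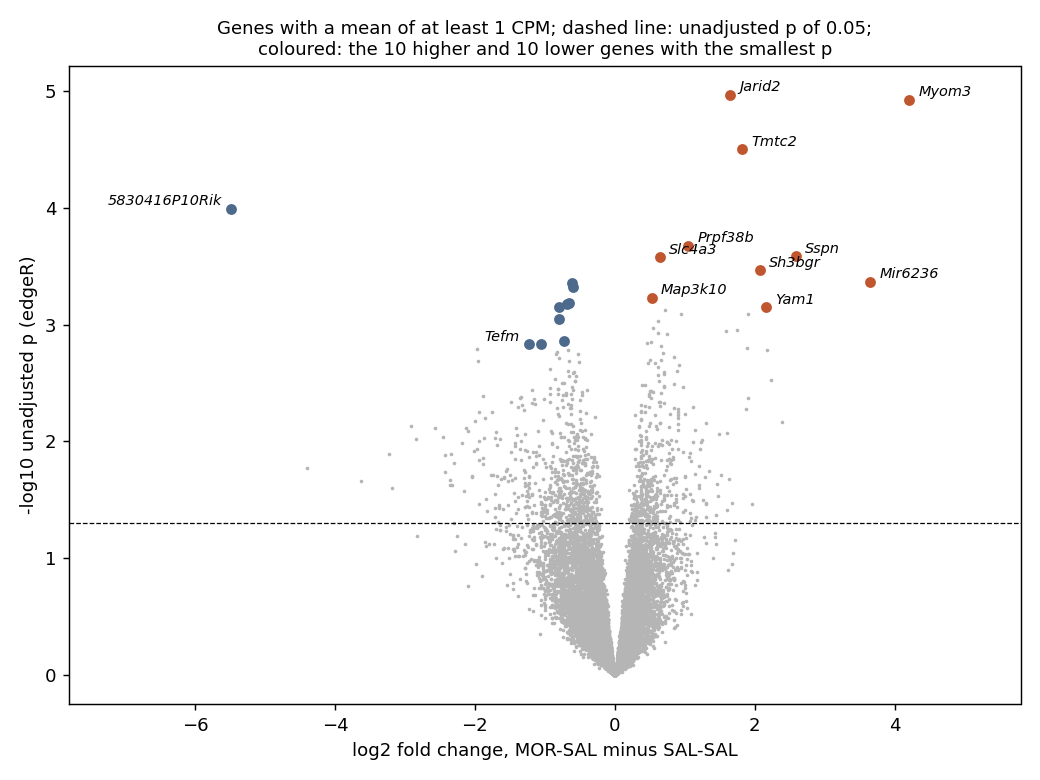
Log2 fold change (MOR-SAL minus SAL-SAL) against -log10 of the unadjusted p from edgeR for the 14025 described genes, with the 10 higher and the 10 lower genes of smallest p in colour. No point passed an adjusted p of 0.05; the smallest adjusted p was 0.093, for Jarid2 and Myom3.

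The 10 genes with estimates above 0 and the smallest unadjusted p are given as a ranking, since none was called. In 9 of the 10 the highest value came from 1 library, MOR-SAL 15-0. Jarid2, a cofactor of the Polycomb repressive complex PRC2 (chromosome 13, 44729474 to 44921643, mm10), had 5640 normalised CPM in MOR-SAL 15-0, while the next MOR-SAL library had 332 and SAL-SAL ran from 219 to 371. Its log2 fold change was 1.65 ± 0.34 (SE, adjusted p = 0.093 in edgeR) and 0.02 without MOR-SAL 15-0. Apart from that library, MOR-SAL lay within the range of SAL-SAL. Tmtc2, an O-mannosyltransferase of the endoplasmic reticulum, had 4240 normalised CPM in the same library, against 116 to 158 in the rest of MOR-SAL and 98.2 to 256 in SAL-SAL. Sspn, which encodes sarcospan of the dystrophin complex, had 1540 against at most 45.1 in the other MOR-SAL libraries and at most 79.4 in SAL-SAL. Myom3, a sarcomeric M-band gene, had 30.1 against at most 0.929 and 0.566, so that it was described only through MOR-SAL 15-0. Prpf38b (a splicing factor), Sh3bgr and Yam1 were also highest there, with 303, 39.5 and 73500 normalised CPM. The other MOR-SAL libraries had at most 41.1, 4.51 and 2480 of these genes.

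Mir6236 was the 1 microRNA locus among the ranked genes, and its mature sequence is shown because the count of a gene this short rests on very little sequence. From RefSeq (GRCm38.p6, plus strand, chromosome 9, 110281353 to 110281371), the capitals marking the seed at bases 2 to 8:
mmu-miR-6236: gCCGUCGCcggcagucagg
The locus had 1180 normalised CPM in MOR-SAL 15-0, 2.95 to 13.3 in the rest of MOR-SAL and 0 to 20.4 in SAL-SAL. The log2 fold change was 3.65 ± 0.89 with all libraries and -0.09 without MOR-SAL 15-0. Smart-seq3 copies polyadenylated RNA in its standard form, so these counts do not measure the mature microRNA.

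In 2 of the 10, Map3k10 and Slc4a3, all 8 MOR-SAL libraries lay above the SAL-SAL median. Map3k10, which encodes a mixed lineage kinase upstream of JNK (chromosome 7, 27656375 to 27674598), ran from 30.9 to 60.2 normalised CPM in MOR-SAL (median 42.8) and from 21.7 to 37.6 in SAL-SAL (median 29.4). The groups overlapped between 30.9 and 37.6. The log2 fold change was 0.53 ± 0.15 (adjusted p = 0.225 in edgeR) and 0.49 in the 18 libraries. Its exons overlap those of Ttc9b on the other strand, and whether counting used strand is not given in the sources used here. Slc4a3, the anion exchanger AE3 (chromosome 1, 75546266 to 75562172), ran from 106 to 328 in MOR-SAL (median 128), the highest again MOR-SAL 15-0, and from 62.7 to 129 in SAL-SAL (median 104). Its log2 fold change was 0.65 ± 0.17 (adjusted p = 0.184 in edgeR) and 0.36 in the 18 libraries.

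The 10 genes with estimates below 0 and the smallest p had SAL-SAL medians of at most 26.2 normalised CPM, and their adjusted p was no lower than 0.18 in edgeR. All 10 estimates stayed below 0 with each library left out. Polr3c, a subunit of RNA polymerase III (chromosome 3, 96711490 to 96727628), ran from 4.6 to 12 normalised CPM in MOR-SAL (median 9.52) and from 9.79 to 20.8 in SAL-SAL (median 13). The estimate was -0.61 ± 0.16 with all libraries and -0.57 in the 18, and 8 of 8 MOR-SAL libraries lay below the SAL-SAL median. Amot, which encodes the Hippo pathway protein angiomotin (chromosome X, 145446425 to 145505181), ran from 4.7 to 8.49 (median 6.6) and from 6.25 to 13.9 (median 9.77), with -0.6 ± 0.16. Acot9, a mitochondrial acyl-CoA thioesterase (chromosome X, 155262443 to 155297654), ran from 2.45 to 16.7 (median 13.9) and from 13.8 to 24.7 (median 19), with -0.65 ± 0.18. In each of these 3 genes the ranges overlapped at their ends while no MOR-SAL library reached the median of SAL-SAL.

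Of the others, Tefm, the elongation factor of mitochondrial transcription, had medians of 1.75 in MOR-SAL and 4.6 in SAL-SAL (log2 fold change -1.23 ± 0.35). Anp32e, a chaperone that removes the histone variant H2A.Z, had medians of 5.37 and 9.56 (-1.05 ± 0.3). Tmem9, a lysosomal membrane protein, had 19 and 26.2 (-0.72 ± 0.21), and Syne2, the nuclear envelope protein nesprin-2, 7.73 and 12.9 (-0.79 ± 0.21). Scrn3 and Yipf2, a Golgi protein, had -0.79 ± 0.22 and -0.68 ± 0.19; exons of both overlap genes on the other strand. The estimates of these 6 genes stayed below 0 with each library or litter left out, between -1.49 and -0.61 in all. The 1 described gene that DESeq2 called, 5830416P10Rik, ran from 0 to 0.116 normalised CPM in MOR-SAL and from 0 to 22.6 in SAL-SAL, where the second highest library had 1.44. The 22.6 belonged to SAL-SAL 3-2. The gene was at 0 in 6 of 8 MOR-SAL and 2 of 13 SAL-SAL libraries, and its estimate stayed below 0 with each library or litter left out. It was described only through that 1 library, all others being at most 1.44, and in the 18 libraries DESeq2 called 0 described genes.

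**Figure D3:**
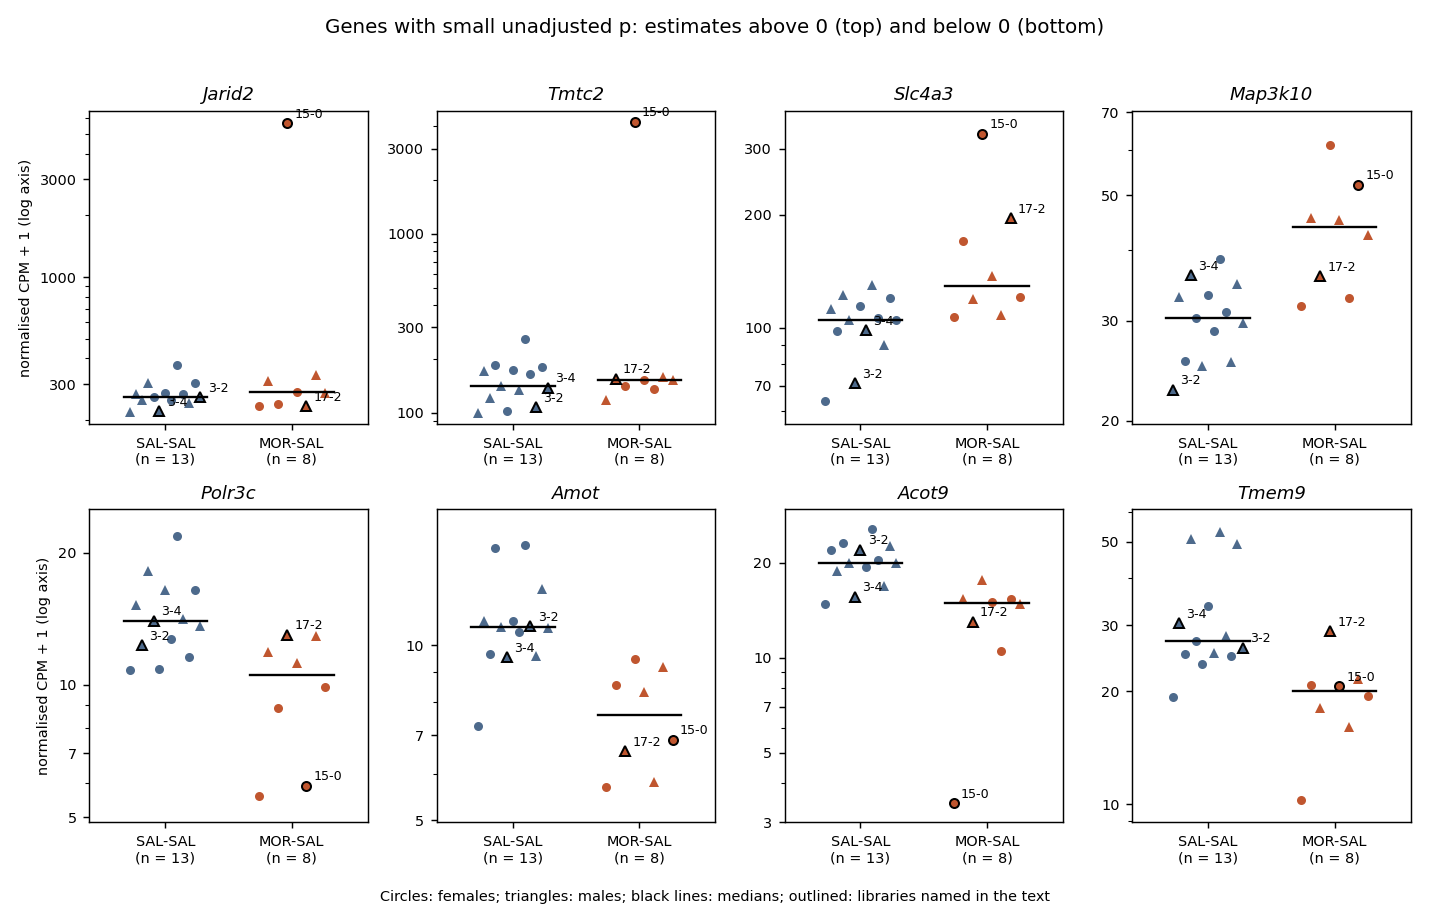
Normalised CPM + 1 (log axes that differ between panels) of 4 genes with estimates above 0 and 4 below 0 in each library, by group. MOR-SAL 15-0 alone sets Jarid2 (5640) and Tmtc2 (4240) apart, while Map3k10, Polr3c, Amot and Acot9 show all 8 MOR-SAL libraries on 1 side of the SAL-SAL median with overlapping ranges.

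Expression of the opioid receptors did not differ at an adjusted p under 0.05. Oprm1, the mu receptor and the main target of morphine (chromosome 10, 6758506 to 7038198), ran from 34 to 88.6 normalised CPM in MOR-SAL (median 46) and from 29.3 to 132 in SAL-SAL (median 51.2). All MOR-SAL values lay within the range of SAL-SAL, and the log2 fold change of -0.3 had a 95% interval from -0.8 to 0.21. Exons of Oprm1 overlap those of Ipcef1 on the other strand, as those of Penk, Tmtc2 and Sspn overlap A830012C17Rik, Gm15663 and Sspnos. Oprk1, the kappa receptor, had medians of 27.6 and 30.4 and a log2 fold change of 0.06 (interval -0.63 to 0.74). Oprd1, the delta receptor (chromosome 4, 132110726 to 132144486), ran from 14.7 to 44.5 in MOR-SAL (median 22.3) and from 8.31 to 26.9 in SAL-SAL (median 14.1), with 8 of 8 MOR-SAL libraries above the SAL-SAL median. The fitted log2 fold change was 0.72 (interval 0.03 to 1.42, adjusted p = 0.408 in edgeR) and 0.58 in the 18 libraries. Oprl1, the nociceptin receptor (chromosome 2, 181715016 to 181720985), went the other way, from 2.7 to 29.6 (median 17.6) against 13.5 to 41.6 (median 26.7). For this receptor the log2 fold change was -0.67 (interval -1.22 to -0.13, adjusted p = 0.352 in edgeR) and -0.51 in the 18 libraries. At an unadjusted p under 0.05 the 4 receptors thus had 1 gene in each direction with all libraries, against backgrounds of 3.27% higher and 4.53% lower, and 0 in the 18.

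The intervals of the peptide precursors reached over 1 log2 unit to either side of the estimate. Penk, the enkephalin precursor of the indirect pathway, ran from 115 to 1170 in MOR-SAL (median 347) and from 6.92 to 2930 in SAL-SAL (median 413), the lowest being SAL-SAL 3-4. Its log2 fold change was -0.55, with an interval from -2.01 to 0.91, and 0.16 with a correlation within litters. Pdyn, the dynorphin precursor of the direct pathway, had medians of 40.6 and 47.6 (-0.47, interval -1.62 to 0.68). Pnoc, the nociceptin precursor, had 5.17 and 7.02 (-0.34, interval -1.37 to 0.68), and Pomc, the precursor of beta-endorphin, was near the limit of description with 0.625 and 0.552. None of the 4 had an unadjusted p under 0.05 in either fit.

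Downstream of the receptors, 27 of the 30 listed genes of opioid receptor signalling were described, with 1 higher and 1 lower at an unadjusted p under 0.05, near the backgrounds of 3.27% and 4.53%. The higher gene was Oprd1. The lower gene was Gnai1, an inhibitory G protein subunit, which ran from 34.3 to 110 normalised CPM in MOR-SAL (median 56.6) and from 39.8 to 191 in SAL-SAL (median 79). Its log2 fold change was -0.61 ± 0.19 (adjusted p = 0.277 in edgeR) and -0.37 in the 18 libraries, the highest SAL-SAL library being 3-2. Gnao1, the most abundant member and the Go alpha subunit of neurons, had medians of 848 and 690 (0.33, interval -0.09 to 0.74). Of 34 genes of cAMP and CREB signalling, Adcy3, an adenylyl cyclase, had an estimate of 0.38 (medians 52.2 and 40.7) and Prkar1a, a regulatory subunit of protein kinase A, -0.57 (medians 168 and 206), and the other 32 had no unadjusted p under 0.05, so that this list too was near the background. The medians of these lists, 0.07 and 0.12, turned to -0.08 and -0.09 when scaled by library size alone.

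**Figure D4:**
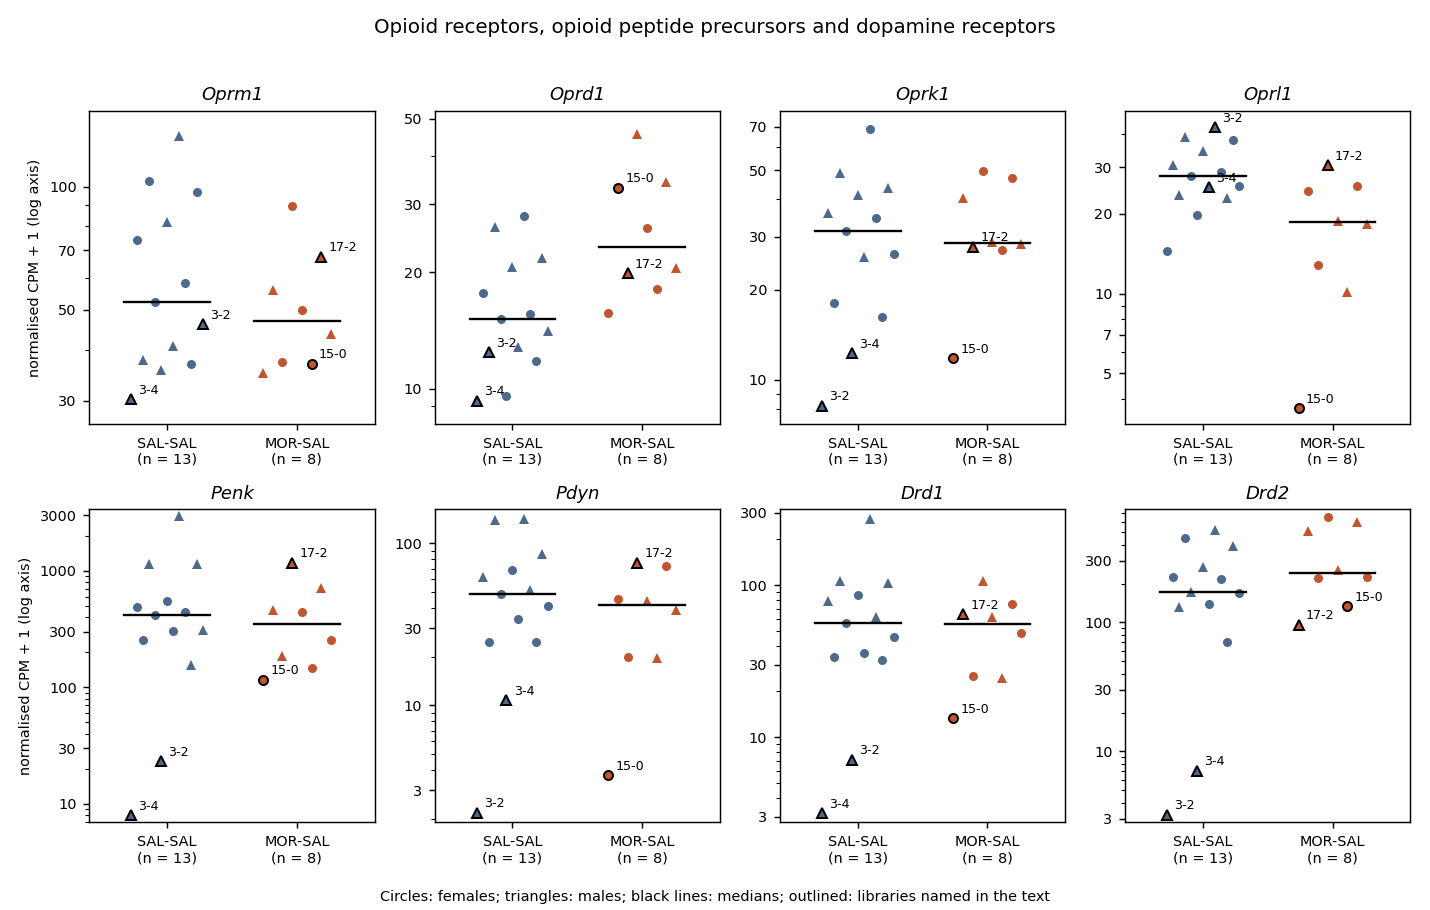
Normalised CPM + 1 (log axes that differ between panels) of the opioid receptors, Penk, Pdyn and the main dopamine receptors in each library, by group. Oprm1 and Oprk1 of MOR-SAL lie within the range of SAL-SAL; all 8 MOR-SAL libraries lie above the SAL-SAL median for Oprd1 and 7 below it for Oprl1, and SAL-SAL 3-2 and 3-4 give the 2 lowest SAL-SAL values of Penk, Drd1 and Drd2.

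Dopamine receptors and medium spiny neuron genes likewise had no called member. Drd1 ran from 12.3 to 105 normalised CPM in MOR-SAL (median 54.3) and from 2.16 to 273 in SAL-SAL (median 55.4), with a log2 fold change of -0.41 (interval -1.63 to 0.81), and 0.06 with a correlation within litters. Drd2 ran from 94.9 to 652 (median 238) and from 2.24 to 523 (median 172), with 0.66 (interval -0.43 to 1.75). Drd3, enriched in the ventral striatum, had medians of 7.42 and 5.73, and its highest value, 51.2, was that of MOR-SAL 15-2. Among the enzymes that degrade dopamine, Maoa had medians of 10.5 and 11.9 (-0.4, interval -0.81 to 0.02, and -0.2 in the 18 libraries). Maob had 5.98 and 5.33 (-0.15, interval -1.17 to 0.87).

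The 21 medium spiny neuron genes had a median log2 fold change of 0.4, against -0.03 over all described genes, with 17 above 0 and 0 past an unadjusted p of 0.05. In the 18 libraries the median was 0.31, and 0.22 when scaled by library size alone. Pde10a, the striatal phosphodiesterase, had medians of 3520 and 2330 (0.71, interval -0.06 to 1.49), and Gng7, a G protein gamma subunit, 444 and 319 (0.8, interval -0.07 to 1.67). The pathway markers gave no common direction: 4 of 8 direct pathway genes were above 0 (median 0.03, and -0.15 when scaled by library size alone) and 2 of 6 indirect pathway genes (median -0.27, and 0.5 with a correlation within litters). In the 18 libraries these medians were -0.07 and -0.33. In the direct pathway, Tac1, the substance P precursor, had -0.34 (interval -1.76 to 1.09), Chrm4, the M4 muscarinic receptor, 0.12, Isl1 0.18, Ebf1 0.39, Eya1 -0.05 and Sfxn1 0.16. In the 18 libraries Chrm4, Isl1 and Eya1 turned to -0.06, -0.07 and 0.21, while Tac1, Ebf1 and Sfxn1 kept their sign. In the indirect pathway, Adora2a had -0.07 (interval -1.51 to 1.37), Gpr6 -0.54, Sp9 -0.47 and Grik3, a kainate receptor subunit, 0.4. With the correlation within litters Adora2a, Gpr6 and Sp9 turned to 0.92, 0.51 and 0.28. Of 14 interneuron genes 2 were lower at an unadjusted p under 0.05, Htr3a and Chrna3, both highest in SAL-SAL 3-2 or 3-4, and 0 were in the 18 libraries. Both were described only through SAL-SAL (means 2.09 and 2.16 normalised CPM, and 0.518 and 0.418 in MOR-SAL), so this count is no result about the list.

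Genes of the excitatory synapse and of ion channels mostly had small estimates above 0. Of 17 ionotropic glutamate receptor genes 16 were above 0 (median 0.28), of 22 postsynaptic scaffold genes 21 (median 0.26), of 21 sodium and calcium channel genes 19 (median 0.23) and of 34 potassium channel genes 24 (median 0.23). Among all described genes spanning over 100 kb, the median was 0.13 and 30.9% were below 0. These medians stayed above 0 in the 18 libraries (0.24, 0.28, 0.27 and 0.16) and when scaled by library size alone (0.13, 0.11, 0.08 and 0.07). At an unadjusted p under 0.05, 1, 3, 2 and 3 of them were higher and 0 lower, against a background of 3.27% higher. In the 18 libraries 0, 0, 0 and 1 were higher at that p, against 1.28%, and in males alone the potassium channel median was 0. The leading ones were Grik5 (kainate receptor, medians 275 and 181, log2 fold change 0.52), Shank3 (279 and 154, 0.5), Dlg4, which encodes PSD-95 (115 and 96, 0.38, and 0.25 in the 18 libraries), and the T-type calcium channel Cacna1i (209 and 113, 0.61). Dlg4 had 0 in males alone and 0.74 in females alone. In the neurotrophin list, Sorcs2, a proneurotrophin co-receptor, ran from 237 to 1500 in MOR-SAL (median 823) and from 159 to 1100 in SAL-SAL (median 397), with 0.84 (interval 0.12 to 1.55). Of 10 metabotropic receptors 8 were above 0 (median 0.28), led by Grm4 (235 and 118, 0.79, and 0.55 in the 18 libraries). Of 20 GABA receptor and synthesis genes 11 were above 0 (median 0.03, and -0.15 when scaled by library size alone), and 0 had an unadjusted p under 0.05.

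Genes of basic metabolism and translation had estimates on the other side. Of 76 described cytosolic ribosomal protein genes 75 were below 0, with a median log2 fold change of -0.59, and of 76 nuclear-encoded oxidative phosphorylation genes 71 were below 0, with a median of -0.32. Among all described genes spanning up to 10 kb, 73% were below 0, with a median of -0.25. In the ribosomal and oxidative phosphorylation lists 3 and 3 genes were lower at an unadjusted p under 0.05, against a background of 4.53% lower. Of 23 glycolysis genes 19 were below 0 (median -0.39) with 4 lower and 1 higher at that p, and of 20 chaperone genes 17 (median -0.3) with 1 lower. All these medians stayed below 0 in the 18 libraries (-0.71, -0.37, -0.54 and -0.38) and with each library or litter left out, where the ribosomal median ran from -1.14 to -0.42 and the oxidative phosphorylation median from -0.76 to -0.16. In males alone these 2 medians were -0.32 and -0.09, and in females alone -1.1 and -0.71. In the 18 libraries 1, 0, 4 and 0 genes of these lists were lower at that p, against a background of 2.65%.

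Single members show how far the groups nonetheless overlapped. Summed over the ribosomal protein genes, MOR-SAL libraries had 426 to 3050 normalised CPM (median 612) and SAL-SAL libraries 346 to 3180 (median 1030), so that the ranges overlapped. The upper end of MOR-SAL rested on 17-2: by mean level it was at 4.68, the other MOR-SAL libraries reached at most 3.15, and 8 of 13 SAL-SAL libraries lay above 3.15. Rpl3 ran from 11.3 to 112 (median 42.8) in MOR-SAL and from 30.7 to 185 (median 72.3) in SAL-SAL, with -0.81 (interval -1.7 to 0.08). Atp5b, a subunit of ATP synthase, had medians of 123 and 186 (-0.69, interval -1.57 to 0.19), and Eno2, the neuronal enolase, 128 and 193 (-0.77, interval -1.32 to -0.21, adjusted p = 0.312 in edgeR). These genes move together from library to library, so the number below 0 is not a number of independent observations. The mitochondrial share of counts was 2.57% and 2.09% in SAL-SAL 4-3 and 5-3, which had the highest ribosomal levels of SAL-SAL (4.5 and 4.78), and at most 0.499% elsewhere, that value being of MOR-SAL 17-2. Its part in these results was not tested. Ribosomal protein genes also have many near-identical processed copies among which reads can be split.

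**Figure D5:**
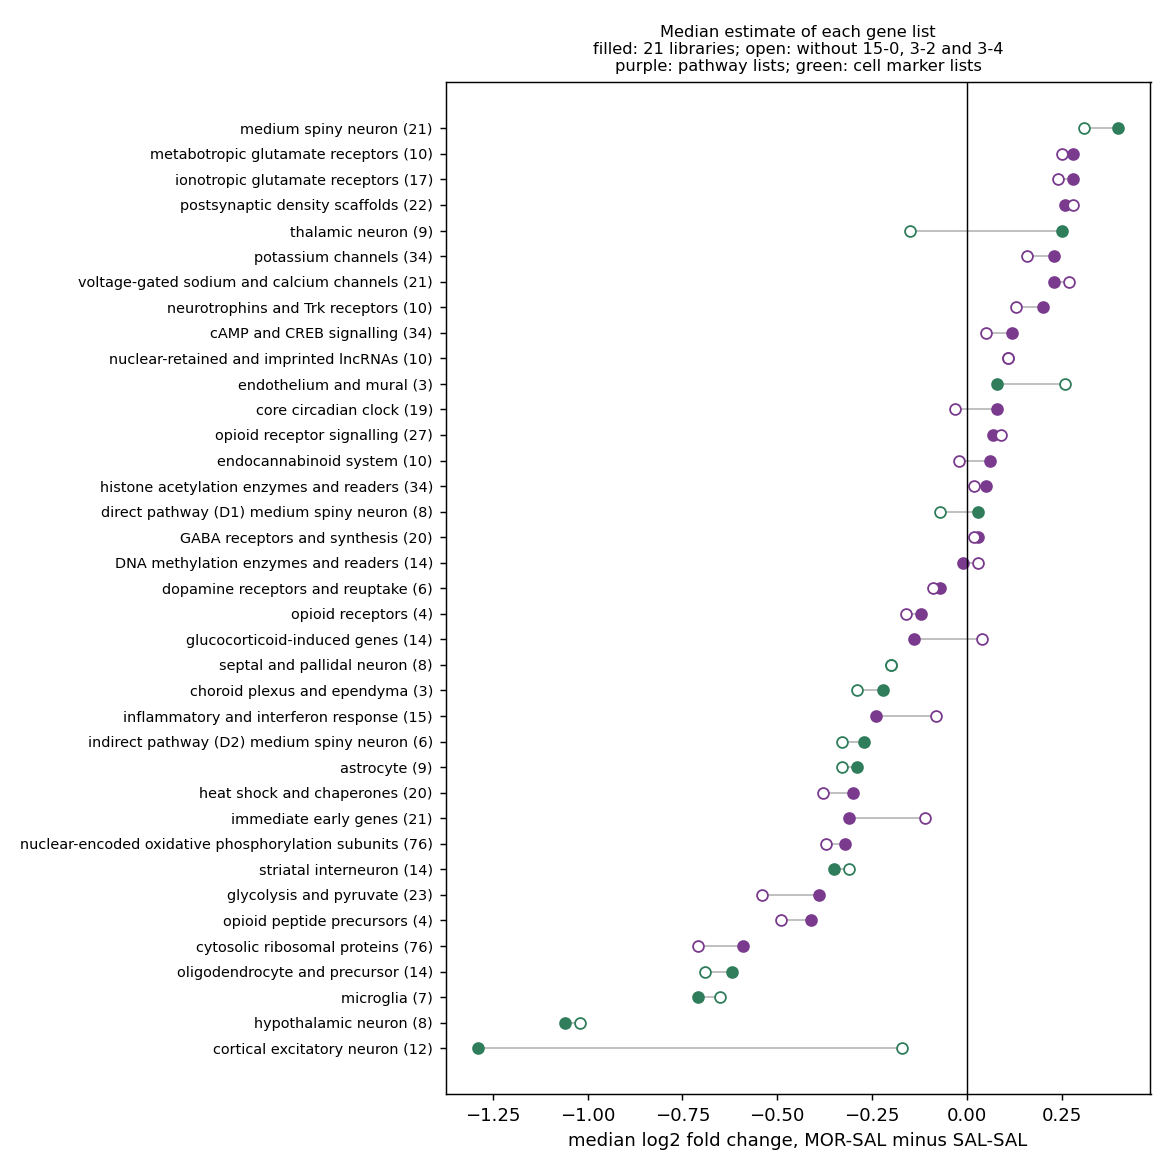
Median log2 fold change (MOR-SAL minus SAL-SAL) of the described members of each list with at least 3, their number in brackets, for all 21 libraries (filled) and the 18 without MOR-SAL 15-0, SAL-SAL 3-2 and SAL-SAL 3-4 (open). Purple marks pathway lists and green marker lists. Glutamate receptor, scaffold and channel lists lie at 0.23 to 0.28 and ribosomal proteins at -0.59 in the first set; the cortical list moves from -1.29 to -0.17 between the sets.

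Immediate early genes, the first transcripts induced by neuronal activity, gave 0 of 21 described genes at an unadjusted p under 0.05. Their median log2 fold change was -0.31 with 19 below 0. It was -0.11 in the 18 libraries and ran from -0.71 to -0.19 with 1 library or litter left out. Egr1, the most abundant, ran from 21.3 to 133 in MOR-SAL (median 47.7) and from 26.5 to 411 in SAL-SAL (median 52.3). Of 14 glucocorticoid-induced genes 8 were below 0 (median -0.14, and 0.04 in the 18 libraries). At that p 2 were higher, against a background of 3.27%, and 1 in the 18 libraries. Fkbp5, a co-chaperone of the glucocorticoid receptor, ran from 49.6 to 108 (median 63.5) in MOR-SAL and from 32.2 to 72.4 (median 48.7) in SAL-SAL, with 0.47 (interval 0.06 to 0.87, adjusted p = 0.365 in edgeR) and 0.49 in the 18 libraries. All 8 MOR-SAL libraries lay above the SAL-SAL median. Sgk1, a glucocorticoid-induced kinase, had medians of 292 and 209 (0.52), and 0.23 in the 18 libraries.

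Of 30 genes of inflammation 15 were described, and 4 others, among them B2m and Myd88, were listed at 0 in all 21 libraries, which says nothing of their level. Rela, the p65 subunit of NF-kB, was the 1 gene with an unadjusted p under 0.05, with medians of 13.2 and 11.3 (0.45, and 0.27 in the 18 libraries) and its highest value, 30.6, in MOR-SAL 15-0. In the 18 libraries 0 of the 15 had such a p. Of 14 genes of DNA methylation, Dnmt3a, a de novo DNA methyltransferase (chromosome 12, 3806007 to 3914443), ran from 288 to 667 in MOR-SAL (median 516) and from 192 to 504 in SAL-SAL (median 377). The fitted log2 fold change was 0.57 (interval 0.16 to 0.97, adjusted p = 0.29 in edgeR) and 0.49 in the 18 libraries. Its exons overlap those of Dnmt3aos on the other strand. Of 34 histone acetylation genes 0 had an unadjusted p under 0.05, and Crebbp, the most abundant, had 0.14 (interval -0.09 to 0.37). The counts of 1 gene in these lists and in those that follow stand against a background of 3.27% higher. Of 19 clock genes 1 was higher at that p, Csnk1e (0.32, and 0.2 in the 18 libraries), and of 10 nuclear or imprinted lncRNAs 1, Meg3, whose value in MOR-SAL 15-0 was 18900 against at most 7030 in the other MOR-SAL libraries. Of the 56 clustered protocadherins 55 were listed at 0 in all 21 libraries; their transcripts share exons.

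Cortical and hypothalamic markers had the lowest list medians. The cortical median was -1.29 with 2 of 12 genes lower at an unadjusted p under 0.05, Nptx1 and Fezf2. Fezf2 was described only through SAL-SAL (mean 2.23 normalised CPM, and 0.124 in MOR-SAL), so the count is not set against the background. Nptx1, neuronal pentraxin, ran from 5.57 to 18.7 in MOR-SAL and from 8.18 to 151 in SAL-SAL, the 2 highest values being 151 in 3-4 and 128 in 3-2. Without the 3 libraries the cortical median was -0.17 with 0 genes at that p. Of 8 hypothalamic markers 3 were lower at that p in both sets, with medians of -1.06 and -1.02. Hcrt was described only through SAL-SAL (mean 7.8 normalised CPM, and 0.441 in MOR-SAL), so the count is not set against the background. The median ran from -1.87 to -0.26 with 1 library or litter left out and was -0.69 with a correlation within litters. Hcrt, the orexin precursor, had 96.4 normalised CPM in SAL-SAL 4-3 and at most 3.59 in the other SAL-SAL libraries, its log2 fold change being -3.63 with and -0.35 without 4-3. Trh ran from 0 to 5.12 in MOR-SAL and from 0.204 to 19.6 in SAL-SAL. The ranges of both genes overlapped, with the highest values in SAL-SAL.

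The interaction of exposure with sex was tested, and 0 of 23426 genes passed an adjusted p under 0.05 in edgeR (smallest 0.57), with 1556 (6.64%) at an unadjusted p under 0.05. Among the described genes 3.63% had such a p, 1.9% with a larger estimate in males and 1.73% with a larger one in females. DESeq2 called 1 gene, which is not among the described genes. Among the 3 described genes of smallest p in each direction, Jarid2 and Tmtc2 again reflected MOR-SAL 15-0, a female library. Gmnn, which encodes the replication inhibitor geminin, had 0 to 0.566 normalised CPM in the 4 MOR-SAL females and 1.16 to 9.97 in the 4 MOR-SAL males, against 0.892 to 2.81 and 0.944 to 8.99 in SAL-SAL. Stab1 had 0 to 0.0836 and 0.464 to 2.14 in MOR-SAL females and males, against 0.283 to 6.8 and 0.326 to 1.36. It was described only through SAL-SAL, its mean in MOR-SAL being under 1 normalised CPM. A530017D24Rik had medians of 0.965 and 3.25 in MOR-SAL and 2.29 and 2.12 in SAL-SAL, and Glt8d2 3.92 and 0.574 against 1.26 and 2.31. These last 4 genes lie at a few CPM, for which a library holds few reads.

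The ranked genes were then looked up in mice that had received LPS instead of saline, 18 MOR-LPS and 15 SAL-LPS striatal libraries of other animals. Many of these were littermates of the baseline animals, by their litter numbers, so the contrasts are not independent. In the LPS mice, 8.04% of the described genes had an unadjusted p under 0.05, 5.6% higher and 2.44% lower in MOR-LPS, and 0 were called in edgeR. The study, using DESeq2 and a fold change cutoff, reported differential genes for this striatal contrast, all of them higher in MOR-LPS. Of the 20 genes, 8 had the same sign of log2 fold change there and 0 the same sign with an unadjusted p under 0.05, while 2 had the opposite sign at that p. These were Amot, at 0.35 (interval 0.1 to 0.6), and Slc4a3, at -0.27 (interval -0.53 to 0). Map3k10 had -0.19 (interval -0.42 to 0.04), Polr3c 0.05 (interval -0.19 to 0.3) and Acot9 -0.05 (interval -0.32 to 0.23). Fkbp5 had 0.53 (interval 0.22 to 0.85) in those mice, beside 0.47 at baseline, and Oprd1 -0.17 (interval -0.71 to 0.38). At baseline Fkbp5 had 0.73 in males alone and 0.13 in females alone. The 14 glucocorticoid-induced genes had a median of 0.59 in the LPS mice, with 9 higher and 0 lower at an unadjusted p under 0.05. Their baseline median was -0.14. The difference between the saline and LPS contrasts was not tested gene by gene. In the LPS libraries the medians of the oligodendrocyte, astrocyte and microglial lists were 1.34, 1.22 and 1.27, on the other side of 0 from the baseline contrast.

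In the other regions of the study, MOR-SAL against SAL-SAL gave the same sign for 13 of the 20 genes in the hippocampus (11 and 13 libraries), 12 in the prefrontal cortex (12 and 10) and 10 in the hypothalamus (14 and 9). With an unadjusted p under 0.05 the same sign was found for 1, 0 and 0 of them and the opposite sign for 0, 0 and 4. All described genes had such a p in 4.35%, 2.66% and 17% of cases, so that 4 of 20 was near the share in the hypothalamus. In the hypothalamus Map3k10 had -0.48 and Slc4a3 -0.54, where the striatum had 0.53 and 0.65. Oprm1 had -0.23 in the hippocampus, -0.37 in the prefrontal cortex and 0.33 in the hypothalamus, beside -0.3 in the striatum. Many of these libraries come from the same animals as the striatal ones, by their litter and animal numbers, so the regions are not independent. Differences between regions were not tested.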

How the data were processed

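RNA of NeuN-sorted striatal nuclei was sequenced in paired ends after a modified Smart-seq3 protocol. Per the labels and the study's methods, the authors trimmed reads (Trim Galore 0.6.7), aligned them to mm10 (STAR 2.7.10a) and counted reads per gene with STAR, HTSeq 0.12.4 serving as a check. The authors deposited raw counts, used here as main values, and CPM (counts divided by library total, without 37 mitochondrial features), used in an alternative. Reads per gene are not separate molecules, so intervals cover the spread between libraries only.

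Groups, sex and litter came from the labels. Here raw counts of genes with a total above 10 were normalised by TMM and fitted in edgeR 4.0.16 (R 4.3.3) with sex and the 4 conditions over all 54 striatal libraries, which share the estimate of spread, and the contrast MOR-SAL minus SAL-SAL was tested by quasi-likelihood. Adjusted p are Benjamini-Hochberg over all genes tested, called under 0.05. Standard errors and 95% intervals come from the same fit. Normalised CPM are CPM of the TMM-scaled library. The model treats libraries as independent although littermates share a dam; the study's model did the same. DESeq2 1.42.0 and limma 3.58.1 served as alternatives. Scripts were tested on simulated data. Positions are from GENCODE M21 (mm10).

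Genes named were: called genes; the 10 higher and 10 lower described genes of smallest p; all described opioid, dopamine and pathway marker genes; of each other list the most abundant gene and the 2 of smallest p; genes called by DESeq2; and 3 genes in each direction for the sex difference. The members and the 38 gene lists were chosen with earlier results of these data known. Some genes that meet this rule are not reported here. Lists are described by counts and medians, with no set test. No labelled batch or date was used here.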

Additional observations from a re-analysis of the deposited data

Results flagged for a closer look

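Of 174 values and list levels examined in the 8 MOR-SAL libraries, 44 held 1 library whose gap to its nearest neighbour, divided by the group's range, was above Dixon's 95% critical value for 8 samples. Chance flags about 1 in 20 groups of independent, normally distributed values. These values are skewed and move together, and 20 of the genes were ranked by p in the same libraries, so that rate is no measure for the 44. SAL-SAL, with 13 libraries, was not examined in this way, and the cause of the gaps was not tested.

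MOR-SAL 15-0 stood apart for 14 of them. Among the ranked genes its gap ratio was 0.982 for Jarid2, 0.969 for Myom3, 0.99 for Tmtc2, 0.956 for Prpf38b, 0.976 for Sspn, 0.6 for Slc4a3, 0.909 for Sh3bgr, 0.991 for Mir6236 and 0.983 for Yam1. It was 0.851 for Gphn, 0.531 for Hdac2, 0.784 for Meg3, 0.694 for Foxj1 and 0.606 for the mean level of the opioid receptors.

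MOR-SAL 17-2 stood apart for 24. In metabolism and protein folding the ratio was 0.716 for Atp5b, 0.769 for Rps24, 0.685 for Aldoa, 0.73 for Hsp90ab1, 0.567 for Dnaja1 and 0.538 for Calr. Among glial and choroid plexus genes it was 0.65 for Cldn11, 0.836 for Aldoc, 0.536 for C1qb, 0.676 for C1qc and 0.935 for Ttr. Among neuronal genes it was 0.74 for Pnoc, 0.666 for Grik3, 0.547 for Grin2b, 0.616 for Grm7 and 0.532 for Shank3. It was 0.55 for A530017D24Rik and 0.709 for Gmnn. For list levels it was 0.635 for postsynaptic scaffolds, 0.636 for oxidative phosphorylation, 0.589 for ribosomal proteins, 0.57 for chaperones, 0.587 for interneuron genes and 0.684 for microglia.

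MOR-SAL 15-2 stood apart for Drd3 (0.805), Ier2 (0.612) and Trpc4 (0.805), MOR-SAL 17-4 for Tefm (0.561) and Fezf2 (0.653), and MOR-SAL 14-1 for Chrna3 (0.776).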

How the results depend on the processing

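No gene was called by edgeR with all libraries, while DESeq2 called 6, edgeR's bias-adjusted fit 1, the fit without a sex term 4 and the fit with marker levels as covariates 2. Without MOR-SAL 15-0, SAL-SAL 3-2 and SAL-SAL 3-4, a set chosen after seeing the data, edgeR called 0 and DESeq2 3. With 1 library or litter left out the number ran from 0 to 5: 2 without MOR-SAL 12-1, 17-4 or 8-0, 3 without 14-1 or 17-2, 4 without 15-2 or 18-0, and 2, 5 and 4 without litters 12, 17 and 18. The described genes among these calls, and among those without a sex term or with the bias-adjusted fit, were Jarid2, Myom3 or Tmtc2. Each was highest in MOR-SAL 15-0, and without that library their log2 fold changes were 0.02, 1.01 and -0.02. For the difference between sexes edgeR called 0 and DESeq2 1. The number of genes at an unadjusted p under 0.05, 2683, was 1737 when only the groups compared were fitted, 1460 with a correlation within litters (0.0288) and 955 with that correlation in the 18 libraries. It was 3141 when scaled by library size alone, 3881 without MOR-SAL 17-2 and 3304 without litter 17.

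In the 18 libraries the log2 fold change was 0 for Jarid2, -0.04 for Tmtc2, -0.26 for Sspn and -0.13 for Mir6236, and DESeq2 gave -0.04, -0.26 and -0.13 for the last 3. With the correlation within litters in the same 18 libraries it was -0.01 for Jarid2, -0.03 for Tmtc2 and -0.09 for Sspn, and with genes of at least 1 CPM only, again in the 18 libraries, -0.02 for Jarid2, -0.06 for Tmtc2, -0.3 for Sspn and -0.16 for Mir6236. With all 21 libraries and the correlation within litters these 4 genes had 0.53, 0.52, 0.54 and 1.41. With 1 library or litter left out the log2 fold change ran from -0.02 to 2.19 for Tmtc2, from -0.16 to 3.02 for Sspn (-0.07 without litter 15) and from -0.09 to 4.18 for Mir6236, the lowest each time without MOR-SAL 15-0 and the highest without litter 17. MOR-SAL 15-0 had 4240, 1540 and 1180 normalised CPM of Tmtc2, Sspn and Mir6236. The cause of the changes in the other alternatives was not tested. Of 1159 values of the 20 ranked genes over all alternatives, 1114 kept their direction and their side of the threshold, 27 passed it and 18 changed sign. Those that passed it were values of Jarid2, Myom3, Tmtc2 and, in DESeq2, 5830416P10Rik. Of 6785 values of the other 117 named genes, 87 moved by more than the spread between libraries.

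No paired analysis was possible because no litter held both exposures, so that litter lies within exposure. Alternatives that kept low-depth libraries or left out libraries against their labelled sex gave the main values, since 0 libraries were affected.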

Other observations

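The described genes were also grouped by the span of the gene, from the annotated start to the end, known for 13413 of 14025. Genes of up to 10 kb (n = 2809) had a median log2 fold change of -0.25 with 73% below 0, and genes over 10 and up to 30 kb (n = 4160) a median of -0.09. Genes over 30 and up to 100 kb (n = 4106) had 0.01, and genes over 100 kb (n = 2338) 0.13 with 30.9% below 0. Without MOR-SAL 15-0, SAL-SAL 3-2 and SAL-SAL 3-4 the medians were -0.24, -0.08, 0.02 and 0.13. At an unadjusted p under 0.05, 39 of the shortest class were higher and 162 lower, and 77 and 38 of the longest class. Over all described genes 3.27% were higher and 4.53% lower at that p. Genes are not independent replicates and no test was made of this order, which was noticed in the data.

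Of the lists not described so far, 10 endocannabinoid genes had a median of 0.06 (-0.11 when scaled by library size alone) with 5 above 0. In the 18 libraries it was -0.02 with 4 above 0. Cnr1, the CB1 receptor, had medians of 162 and 155 normalised CPM. Of 10 neurotrophin genes 6 were above 0 (median 0.2), with Ntf3 lower at an unadjusted p under 0.05 with 26.5 in SAL-SAL 3-4 and 13.3 in 3-2 against at most 2.08 in MOR-SAL. Ntf3 was described only through SAL-SAL (mean 3.92, and 0.609 in MOR-SAL), and 0 genes of the list were lower in the 18 libraries without MOR-SAL 15-0, SAL-SAL 3-2 and 3-4. Of 9 astrocyte genes 8 were below 0 (median -0.29), with Aqp4, the astrocyte water channel, lower at that p (medians 1.06 and 3.23), against a background of 4.53%. The 8 septal and pallidal, 3 endothelial and 3 choroid plexus genes had medians of -0.2, 0.08 (-0.06 when scaled by library size alone) and -0.22 and 0 genes at that p.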
